A study of Mus musculus with 8 samples.

Results

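The genes described here encode interferon ligands, the chains of their receptors and the Janus kinases (JAKs) bound to those receptors. They are 10 genes chosen by symbol from the 57353 rows of the expression table: the ligand genes Ifnb1 and Ifna4, the receptor genes Ifnar1, Ifnar2, Ifngr1, Ifngr2 and Il10rb, and the kinase genes Jak1, Jak2 and Tyk2. All 10 were found, and 9 had enough counts to be tested; Ifna4 did not. RNA was sequenced from B16-OVA cells, a B16F10 mouse melanoma line that expresses the model antigen ovalbumin, with the genotype given as WT. Control cells were untreated. HMF cells were incubated with rod-shaped magnetic micromotors (MagRMs) for 24 h before a high-frequency magnetic field (HMF) was applied, and RNA was collected after 6 h. Each group had 4 libraries, named by group and replicate number below. No library received the micromotors or the field alone, so their parts in a difference cannot be told apart. Separate cultures are not stated for any library. P-values therefore measure the spread between libraries, which may be technical.

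Type I interferons, among them interferon beta and the interferon alphas, are secreted by cells that sense foreign or misplaced nucleic acid. They bind a receptor built from IFNAR1, which holds the kinase TYK2, and IFNAR2, which holds JAK1. Interferon gamma, made chiefly by T and NK cells, binds IFNGR1 and IFNGR2, which hold JAK1 and JAK2. IL10RB is the shared second chain of the receptors for interleukin 10, interleukin 22 and the type III interferons, and it also uses TYK2. The kinases phosphorylate STAT proteins, which enter the nucleus and switch on interferon-stimulated genes. In tumours this pathway raises antigen presentation and draws in T cells.

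Total counts per library ranged from 13973961 to 19295358, the highest being HMF 4. That library also stood apart from the other HMF libraries most often, in 477 of 15082 tested genes (3.16%, by Dixon's test for groups of 4), against 0.637% to 2.28% for each of the other 7 libraries in its own group. Results are therefore also given without HMF 4 where that matters. Melanocyte markers summed to 17200 to 19300 counts scaled to library size (CPM) in Control and 12900 to 15900 CPM in HMF, with all 10 detected. Of these, 7 fell (Mitf, Tyr, Tyrp1, Dct, Slc45a2, Gpr143 and Mc1r), beside 13.0% of all tested genes. The number of markers that fell was 4 without Control 2, without Control 3 or without Control 4, and it was 3 without HMF 2. With the replicate numbers as a block 4 fell, and with adjusted p below 0.01 the number was 0. The part of these falls in the results was not tested. Of the markers of immune cells that could bring in interferon or its receptors, many had no count. The plasmacytoid dendritic cell genes Siglech and Tlr9, the macrophage genes Adgre1 and Itgam and the T cell genes Cd3e, Cd3d and Cd8a had no count in any library, and Ptprc, present on all leukocytes, had 2 counts in HMF 2 and none elsewhere. Other genes of these lists had a few counts in every library: Lyz2 had 13 to 28 and was not called, Cd4 had 4 to 11 and Cd14 had 1 to 11. The summed level of the plasmacytoid list was 1030 to 1130 CPM in Control and 1540 to 1740 CPM in HMF, nearly all of it from Bst2, which is itself interferon-inducible, and Tcf4. Both rose (Tcf4 with adjusted p = 0.0215, edgeR), but only 1 of the pair without Control 3 or 4 or HMF 1 or 3. The macrophage list, in which Cd68 rose, summed to 8.17 to 11.8 CPM in Control and 14.7 to 16.1 CPM in HMF, and the T and NK list, in which Lck rose, to 1.22 to 2.06 and 2.55 to 4.44 CPM. Fibroblast markers were present at a low level, 28.4 to 44.8 CPM in Control and 20.0 to 26.4 CPM in HMF, mostly from Postn and Col1a2. Of the 4 tested, Col1a2 fell by 1.49 in log2 (edgeR, adjusted p = 0.00274), and Thy1 had no count. The part of these cell types in the results was not tested. In RNA from a whole culture, fewer cells making a transcript and less of it per cell cannot be told apart.

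The stretches of DNA just upstream of both ligand genes and of Ifngr2 are shown because Ifnb1 had the largest change among the tested members, Ifna4 is the other ligand gene, and Ifngr2 is the receptor gene that rose. Each is the 250 bases before the annotated start, 5′ to 3′ on the gene's strand, from RefSeq on GRCm38.p6 (Ifnb1 chr4:88522795-88523044, minus strand; Ifna4 chr4:88841566-88841815, plus strand; Ifngr2 chr16:91546809-91547058, plus strand). Capitals mark matches to AANNGAAA, the core bound by interferon regulatory factors (IRFs), to a tandem form in which GAAA occurs again after a gap of 2 bases, whose matches overlap those of the first, or to the kappa-B consensus bound by NF-kB.
Ifnb1: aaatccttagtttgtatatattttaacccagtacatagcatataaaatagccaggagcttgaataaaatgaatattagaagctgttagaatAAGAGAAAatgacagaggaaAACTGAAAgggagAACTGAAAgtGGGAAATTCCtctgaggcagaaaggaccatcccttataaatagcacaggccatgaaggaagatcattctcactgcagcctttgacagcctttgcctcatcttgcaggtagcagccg
Ifna4: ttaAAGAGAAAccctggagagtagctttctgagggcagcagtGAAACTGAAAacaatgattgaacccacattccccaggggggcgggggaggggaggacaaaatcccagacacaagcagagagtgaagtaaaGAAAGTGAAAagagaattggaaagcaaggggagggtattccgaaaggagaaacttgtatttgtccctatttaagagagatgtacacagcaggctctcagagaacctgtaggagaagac
Ifngr2: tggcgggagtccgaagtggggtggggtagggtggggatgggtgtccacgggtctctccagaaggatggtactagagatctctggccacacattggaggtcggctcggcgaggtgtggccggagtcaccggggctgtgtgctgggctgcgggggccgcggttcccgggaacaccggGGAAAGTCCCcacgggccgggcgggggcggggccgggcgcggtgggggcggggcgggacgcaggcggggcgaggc

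The Ifnb1 stretch held 3 AANNGAAA matches, the nearest between 126 and 119 bases before the start, followed by a kappa-B match between 116 and 107 bases before it. Upstream of Ifna4 there were also 3 AANNGAAA matches, and 2 of them were part of the tandem form. Ifngr2 had a kappa-B match on the opposite strand, between 75 and 66 bases before its start. Both strands were searched in 32851 RefSeq promoters of the same length. AANNGAAA occurred in 21.3% of them, the tandem form in 2.98% and the kappa-B consensus in 7.25%. Of the 9 members with a promoter in the RefSeq table, the IRF core was found in Ifnb1 and Ifna4, and the STAT-type motif TTCNNNGAA, present in 7.02% of all promoters, in Ifnar2. Il10rb had no entry. A match describes the letters and not a site in use. As background, the virus-inducible enhancer of the interferon beta gene is known to lie directly upstream of the start and to bind IRFs and NF-kB.

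Ifnb1, which encodes interferon beta, was present at a low level in untreated cells and several-fold higher after the treatment, whereas the receptor and kinase genes changed far less. Counts of Ifnb1 were 17, 8, 14 and 10 in Control 1 to 4 and 47, 49, 45 and 168 in HMF 1 to 4. In FPKM, the count scaled to gene length and library total, the level was 1.35, 0.763, 1.17 and 0.762 in Control and 4.24, 4.37, 4.24 and 11.6 in HMF. Every HMF library lay above every Control library. HMF 1, 2 and 3 were close together, and HMF 4 stood well above them. The fitted log2 fold change was 2.65 ± 0.42 (SE), a 6.29-fold rise with a 95% interval of 3.32 to 11.9 (edgeR quasi-likelihood test, n = 4 per group, adjusted p = 0.000845). Without HMF 4 the mean HMF level was 4.28 ± 0.0753 FPKM (SD, n = 3), and the log2 fold change was 2.10, or 4.3-fold (edgeR, adjusted p = 6.77e-05). A log2 fold change of 2.5 or more with an adjusted p below 0.05 was found in 116 of the 15082 tested genes (0.769%). Ifnb1 entered the tested set through the HMF group: all 4 HMF libraries but 2 of 4 Control libraries reached the count filter.

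Ifna4, one of the interferon alpha genes, showed no common direction among the HMF libraries. Its counts were 11, 3, 7 and 8 in Control and 2, 13, 2 and 40 in HMF, or 1.17, 0.383, 0.78 and 0.815 FPKM and 0.241, 1.55, 0.252 and 3.7 FPKM. HMF 1 and HMF 3 lay below all Control libraries, and HMF 2 and HMF 4 above all of them. Except for HMF 4 the margins were very few reads: 2 counts against 3 in Control 2, and 13 in HMF 2 against 11 in Control 1. Ifna4 was below the count filter. With no filter, edgeR gave a log2 fold change of 0.96 (adjusted p = 0.363) and DESeq2 0.95 (adjusted p = 0.453). Interferon alpha genes are close copies of each other, and the handling of reads shared among them is not stated.

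The other interferon genes were hardly detected. Over the 16 further type I genes together, 3 to 6 counts were found per Control library and 6 to 11 per HMF library, mostly in Ifnz, and none was tested. Of the 16, 7 (Ifna9, Ifna11, Ifna12, Ifna14, Ifna15, Ifna16 and Ifnk) had no count in any library. Ifng, which encodes interferon gamma, and the type III genes Ifnl2 and Ifnl3 had no count either, which allows up to 0.16 to 0.213 CPM per library (3 counts, counting error only). Ifnb1 was thus the ligand transcript with the highest mean in both groups, although in Control its libraries overlapped those of Ifna4.

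**Figure D1:**
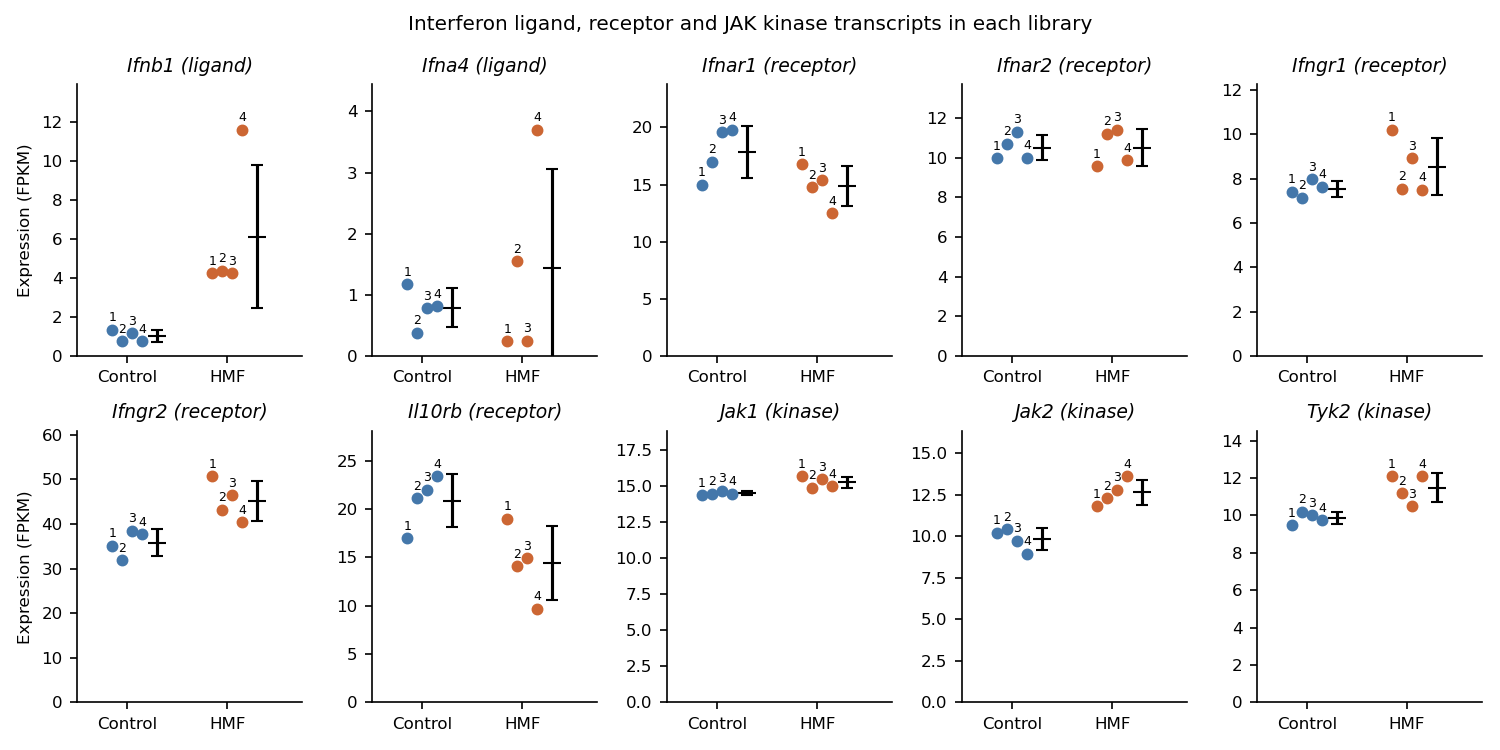
Level of each of the 10 genes in FPKM (vertical axes, starting at 0) in Control (blue) and HMF (orange); each point is a library with its replicate number, and the black mark and bar are the mean and SD over 4 libraries (the Ifna4 bar in HMF is cut at 0). Ifnb1 is higher in all 4 HMF libraries with HMF 4 at 11.6 FPKM, while Ifnar2 lies between 9.56 and 11.4 FPKM throughout.

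Of the 9 tested members 4 rose (44.4%) and 1 fell (11.1%); over all tested genes 26.7% were called, 13.7% as rises and 13.0% as falls (2073 and 1957 of 15082). The groups did not overlap for 5 members, all higher in HMF, and for 29.1% of all tested genes. On the deposited FPKM values, which are scaled by library totals alone, limma called 1625 rises and 2311 falls over all genes. Apart from Ifnb1, the 8 receptor and kinase genes reached the filter in every library, and among them 3 rose and 1 fell. Their log2 fold changes ran from -0.49 to 0.41, with a median of 0.17, beside a median of -0.02 over all tested genes. Since the members were chosen with results known, these shares are a description only.

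Neither chain of the type I receptor passed the test. Ifnar1, the chain that holds TYK2, was at 15, 17, 19.6 and 19.8 FPKM in Control and at 16.8, 14.8, 15.4 and 12.5 FPKM in HMF. The groups overlapped, and HMF 4 was the lowest of all 8 libraries. Its log2 fold change was -0.22 ± 0.10 (SE, adjusted p = 0.144), with a 95% interval of -0.45 to 0.01. Ifnar2, the high-affinity chain that holds JAK1, was at 9.98, 10.7, 11.3 and 10 FPKM in Control and at 9.56, 11.2, 11.4 and 9.85 FPKM in HMF. The 2 groups had the same mean, 10.5 FPKM. Its log2 fold change of 0.04 ± 0.08 had an interval of -0.13 to 0.22 (edgeR, adjusted p = 0.726), so a change beyond 0.914-fold or 1.16-fold lies outside it; the sign turned to -0.00105 when library size alone was used for scaling.

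The chains of the interferon gamma receptor were both higher on average, and Ifngr2 passed the test. Ifngr2, the signalling chain that holds JAK2, had 35.1, 31.9, 38.5 and 37.7 FPKM in Control and 50.7, 43.2, 46.5 and 40.4 FPKM in HMF. All HMF libraries were above all Control libraries, as were 14.7% of all tested genes. It rose by 30.2%, a log2 fold change of 0.38 ± 0.08 (SE; edgeR, adjusted p = 0.00477), and by 0.425 on that scale without HMF 4. Ifngr1, the ligand-binding chain, was at 7.4, 7.14, 7.97 and 7.63 FPKM in Control and 10.2, 7.54, 8.91 and 7.5 FPKM in HMF. HMF 1 and HMF 3 lay above the Control range and HMF 2 and HMF 4 within it. The log2 fold change of 0.22 ± 0.10 did not pass (edgeR, adjusted p = 0.137; 95% interval -0.00348 to 0.45).

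Il10rb was the member with a fall, and its call rested on single libraries. It was at 17, 21.1, 22 and 23.4 FPKM in Control and 19, 14.1, 14.9 and 9.69 FPKM in HMF. Control 1 and HMF 1 overlapped, and the other HMF libraries lay below all Control libraries, with HMF 4 lowest. The log2 fold change was -0.49 ± 0.17 (SE; edgeR, adjusted p = 0.0493), and the level fell by 28.9%, with a 95% interval from 0.551-fold to 0.916-fold. Leaving out Control 2, 3 or 4 or HMF 2, 3 or 4 ended the call, with adjusted p from 0.0538 without HMF 4, where the log2 fold change was -0.34, to 0.124 without Control 4. Ifnlr1, which pairs with Il10rb in the type III interferon receptor, had a log2 fold change of -0.39 ± 0.26 and did not pass (edgeR, adjusted p = 0.31). The partner for interleukin 10, Il10ra, had no count in any library.

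Ifnar2, Il10rb, Ifnar1 and Ifngr2 lie next to each other in this order on chromosome 16, all on the plus strand, with no other tested gene between them. Along that order the log2 fold changes were 0.04, -0.49, -0.22 and 0.38, so that Il10rb and Ifngr2, in the same cluster, were called in opposite directions. The 8 rows that the table lists between them had 28 counts in all libraries together, all in Gm7860. Of these rows, Gm21970 overlaps Ifnar2 and Il10rb on the same strand and had no count in any library. How reads in such an overlap were counted is not stated, and its part in the levels of Ifnar2 and Il10rb was not tested.

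**Figure D2:**
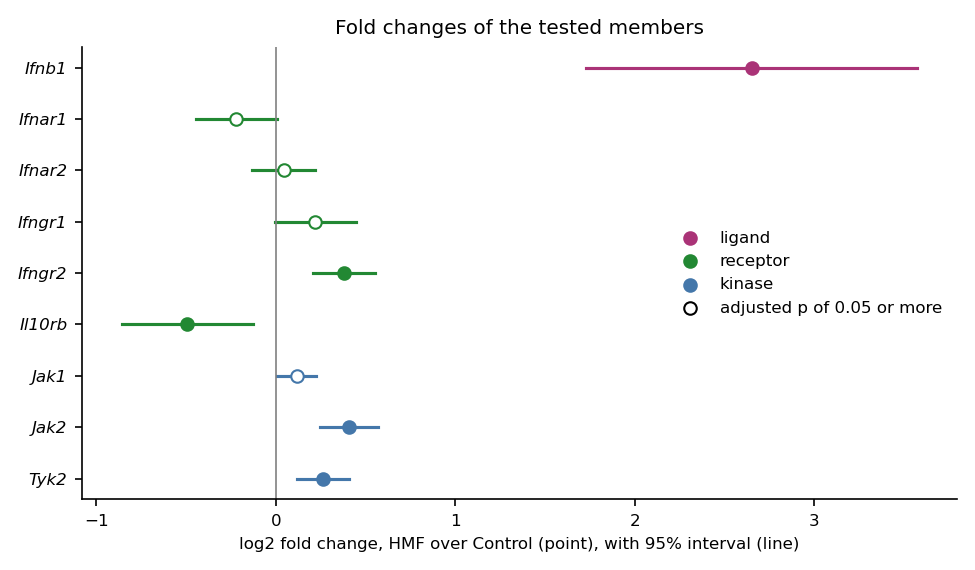
Log2 fold change of HMF over Control (horizontal axis) for the 9 tested members, with the 95% interval from the edgeR fit as a line; filled points had an adjusted p below 0.05 and open points did not. Ifnb1 lies at 2.65, and the receptor and kinase genes lie between -0.49 and 0.41.

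All 3 kinase genes were higher in every HMF library than in any Control library, and 2 of them passed the test. Over all tested genes, 14.7% had every HMF library above every Control library, and 13.7% were called as rises. Jak2, the kinase of the IFNGR2 chain, had 10.2, 10.4, 9.73 and 8.95 FPKM in Control and 11.8, 12.3, 12.8 and 13.6 FPKM in HMF. It rose by 32.7%, a log2 fold change of 0.41 ± 0.07 (SE; edgeR, adjusted p = 0.00206). Tyk2, the kinase of the IFNAR1 and IL10RB chains, had 9.5, 10.2, 10 and 9.74 FPKM in Control and 12.1, 11.2, 10.5 and 12.1 FPKM in HMF. Its rise was 20.1%, or 0.26 ± 0.07 on the log2 scale (edgeR, adjusted p = 0.0123). The lowest HMF library, HMF 3, exceeded the highest Control library by a small margin. Jak1, the kinase shared by the type I and type II receptors, was at 14.4 to 14.7 FPKM in Control and 14.9 to 15.7 FPKM in HMF. It varied least of all members, with a coefficient of variation of 0.549% of CPM in Control and 1.67% in HMF. Its log2 fold change of 0.12 ± 0.05, or 8.43%, did not pass over all genes (edgeR, adjusted p = 0.102). Jak3, which serves receptors with the common gamma chain, had a log2 fold change of 0.24 ± 0.22 (edgeR, adjusted p = 0.457).

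**Figure D3:**
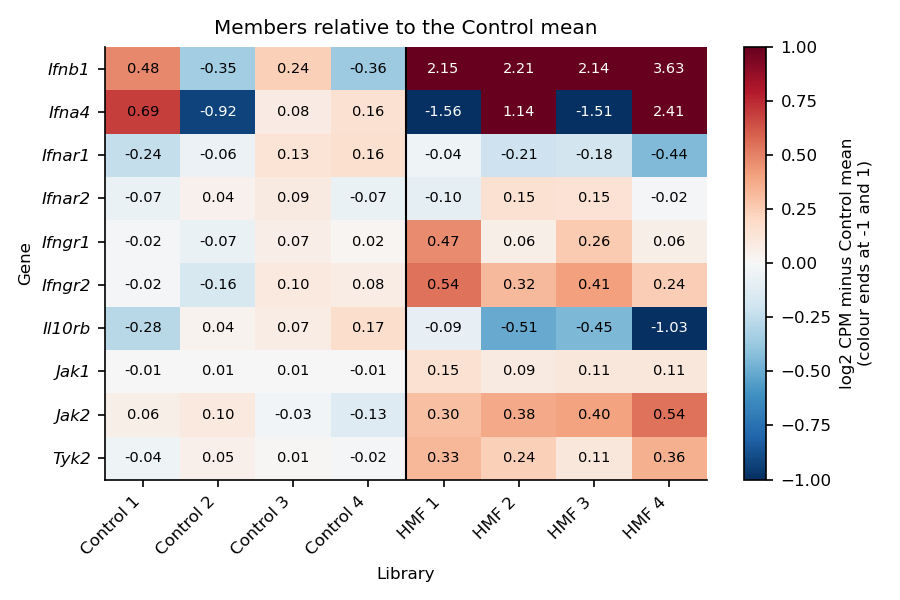
Log2 CPM of each member (rows) in each library (columns) minus the mean of its log2 CPM in Control; the colour scale ends at -1 and 1 and the numbers give the values. The Ifnb1 row reads 2.14 to 2.21 in HMF 1 to 3 and 3.63 in HMF 4, where Ifna4 (2.41) is also highest and Il10rb (-1.03) and Ifnar1 (-0.44) are lowest.

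In CPM, HMF 1 was the highest or lowest HMF library in 8 of the 10 genes and HMF 4 in 7, against 3 for HMF 2 and 2 for HMF 3. In HMF 4, Ifnb1, Ifna4, Jak2 and Tyk2 were highest, and Ifnar1, Ifngr2 and Il10rb were lowest. HMF 1 was highest for Ifnar1, Ifngr1, Ifngr2, Il10rb and Jak1 and lowest for Ifna4, Ifnar2 and Jak2. Without HMF 4 the 4 rises were still called, and the fall of Il10rb was not. That loss is not particular to HMF 4, because the call was also lost without Control 2, 3 or 4 or HMF 2 or 3.

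Levels per gene length put Ifngr2 first in both groups, at 35.8 ± 3.01 FPKM in Control and 45.2 ± 4.43 FPKM in HMF (SD, n = 4). In Control it was followed by Il10rb at 20.9 ± 2.75, Ifnar1 at 17.9 ± 2.31, Jak1 at 14.5 ± 0.126, Ifnar2 at 10.5 ± 0.624, Tyk2 at 9.85 ± 0.291, Jak2 at 9.82 ± 0.648, Ifngr1 at 7.53 ± 0.354, Ifnb1 at 1.01 ± 0.297 and Ifna4 at 0.787 ± 0.322 FPKM. In that order the libraries of Il10rb and Ifnar1 overlapped, as did those of Ifnar2 and Tyk2, Tyk2 and Jak2, and Ifnb1 and Ifna4. In HMF, Jak1 (15.3 ± 0.375), Ifnar1 (14.9 ± 1.81) and Il10rb (14.4 ± 3.83 FPKM) overlapped, and so did each following pair down to Ifnb1 at 6.12 ± 3.66 FPKM. In HMF 4, Ifnb1 exceeded Ifnar2, Ifngr1 and Il10rb per length; in HMF 1 to 3 it was below every receptor and kinase gene.

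Ratios of a pair of transcripts in the same library do not depend on how libraries are scaled. They were compared for 6 pairs by an exact permutation test (two-sided, 4 against 4, for which the smallest possible p is 0.0286), and p-values were adjusted over the 6. The FPKM ratio of Ifnb1 to Ifnar1 was 0.0902, 0.0449, 0.0595 and 0.0384 in Control and 0.252, 0.294, 0.275 and 0.93 in HMF. That of Ifnb1 to Ifnar2 was 0.0713 to 0.135 in Control and 0.372 to 1.18 in HMF. The log2 ratios were higher by 2.75 and 2.49 in HMF (exact p = 0.0286, adjusted 0.0429 for each), and by 2.31 and 2.10 without HMF 4. In both ratios every HMF library lay above every Control library. Both hold the same Ifnb1 counts, whose groups were already apart. They are therefore not independent of each other, and they add no separate support for the rise of Ifnb1.

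Within receptor and kinase pairs the shifts were small. Ifngr2 to Ifngr1 went from 4.75 ± 0.207 to 5.33 ± 0.314 (SD, n = 4; exact permutation test, p = 0.0286, adjusted 0.0429) and Jak2 to Jak1 from 0.676 ± 0.0462 to 0.827 ± 0.0647 (exact p = 0.0286, adjusted 0.0429). The groups did not overlap in either ratio. With fewer libraries these did not always pass: p was 0.0571 for the Ifngr2 ratio without Control 1, 2, 3 or 4 or HMF 2, and for the Jak2 ratio without Control 1, 3 or 4. The Tyk2 to Jak1 ratio was 0.678 ± 0.0161 in Control and 0.751 ± 0.0538 in HMF (exact permutation p = 0.0857, adjusted 0.103), with HMF 3 at 0.677 inside the Control range; without HMF 3 the exact p was 0.0286. The ratio of Ifnar2 to Ifnar1 was 0.595 ± 0.0693 in Control and 0.713 ± 0.0989 in HMF (exact permutation p = 0.114, adjusted 0.114).

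**Figure D4:**
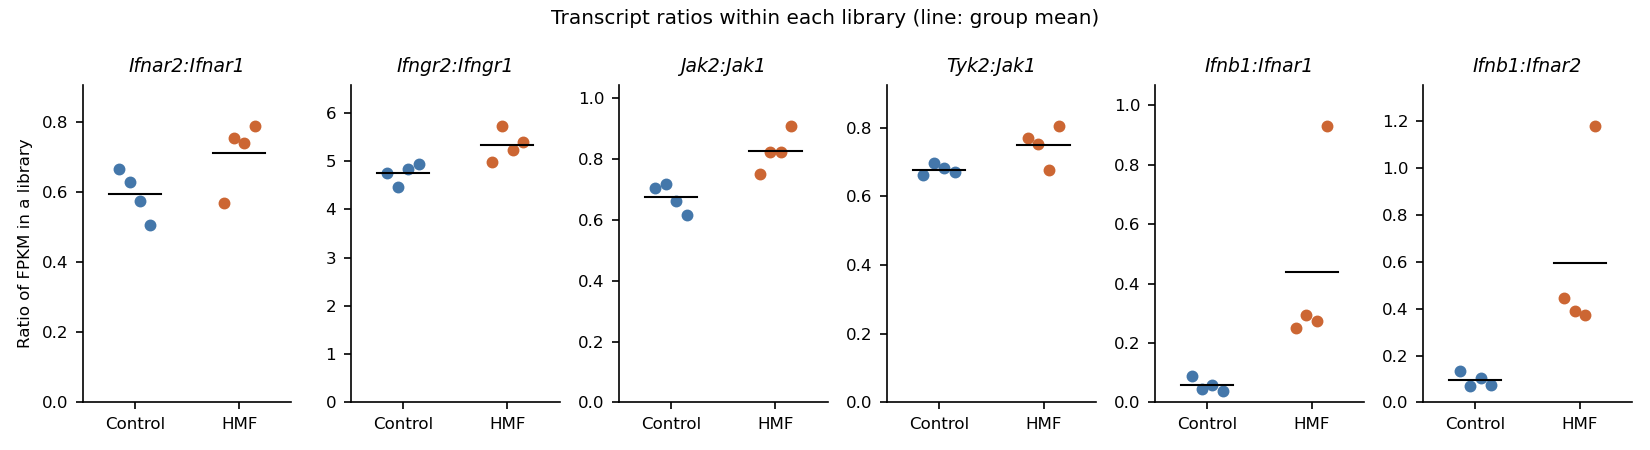
FPKM ratio of 2 members within each library (vertical axes, starting at 0), with a point per library, Control in blue, HMF in orange, and a line at the group mean. The Ifnb1 to Ifnar1 ratio is at most 0.0902 in Control and at least 0.252 in HMF, and the Ifnar2 to Ifnar1 ratio overlaps between the groups.

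Downstream of the receptors, the genes for the transcription factor that type I interferon activates were higher. Among 7 tested genes of the STAT and Irf9 list, 4 rose and none fell (57.1% called). Over all tested genes 26.7% were called, 13.7% as rises. The median log2 fold change of the list was 0.53. Its genes were chosen with earlier results of these data known, so the count is not independent evidence. Stat2 rose by 1.58 ± 0.14 in log2 (SE; edgeR, adjusted p = 1.41e-05) and Irf9, whose product binds DNA as part of the factor ISGF3, by 0.53 ± 0.07 (edgeR, adjusted p = 0.000211). Stat3, named after its value was seen, rose by 0.73. Stat5b and Stat5a, with the largest p, were at -0.00256 ± 0.10 and 0.03 ± 0.10, and neither sign held under all alternatives. All 17 tested early interferon target genes rose, with a median log2 fold change of 2.03. Ifit2, Ifit3 and Irf7 had the smallest p, with log2 fold changes of 3.50 ± 0.10, 2.12 ± 0.08 and 1.63 ± 0.07; the largest p belonged to Socs1 and Mx2, which rose by 1.60 and 1.23. These target genes had been seen to rise before the list was drawn up, so their count is not independent evidence.

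In the list of genes that lead to interferon production, 15 rose and none fell among 21 tested (71.4% called). Over all tested genes 26.7% were called, 13.7% as rises. The median log2 fold change was 0.42, and 11 to 15 genes rose under the alternatives. The list was chosen with earlier results known, so its count is not independent evidence. Ifih1, which encodes the double-stranded RNA sensor MDA5, rose by 1.77 ± 0.10 (edgeR, adjusted p = 4.37e-07). Irf1, a transcription factor induced by interferon gamma, rose from 41.3 ± 2.25 to 169 ± 43.2 CPM (SD, n = 4), or by 2.03 ± 0.15 on the log2 scale (edgeR, adjusted p = 3.47e-06). The genes with the largest p, Atf2 (0.01 ± 0.07) and Mavs (-0.07 ± 0.09), were not called, and their signs did not hold under all alternatives. Irf1 and Irf7 are also in the list of targets, and Irf7 is the factor that amplifies interferon alpha transcription.

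Counting both directions, genes that restrain the receptors were called about as often as genes in general. Of 16 tested, 4 rose and 1 fell (31.2% called). Over all tested genes 26.7% were called, 13.7% as rises and 13.0% as falls. The median log2 fold change of the list was 0.02. Usp18, whose product binds IFNAR2 and displaces JAK1, rose from 244 ± 18.9 to 954 ± 78.3 CPM (mean ± SD over 4 libraries), or by 1.97 ± 0.08 in log2 (edgeR, adjusted p = 2.89e-08). Isg15, which in human cells stabilises USP18, rose by 1.82 ± 0.08 and Socs1, a JAK inhibitor gene, by 1.60 ± 0.18; these 3 genes are also counted among the targets. Outside the naming rule, and chosen after their values were seen, the phosphatase gene Ptpn2 rose by 0.48 and Ptpn6 fell by 0.65. Ptpn1 (-0.00572 ± 0.06) and the SOCS family gene Socs3 (0.03 ± 0.18) had the largest p, with signs that turned under some alternatives. The call of Ptpn6 (edgeR, adjusted p = 0.039) was lost without Control 2, 3 or 4 or HMF 2 or 3 (adjusted p 0.0574 to 0.101).

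The list drawn up for the turnover of IFNAR1 protein had 3 rises and no fall among 13 tested (median log2 fold change 0.08). Whether each listed gene acts on IFNAR1 in these cells was not tested. The 23.1% called were all rises. Over all tested genes 26.7% were called in either direction and 13.7% as rises. Under 13 of the 19 alternatives 1 gene of the list was called. Usp25, a deubiquitinase gene, rose by 1.10 ± 0.07 (SE; edgeR, adjusted p = 6.64e-07). The ubiquitin ligase genes Fbxw11 and Rnf41 rose by 0.19 and 0.23, with adjusted p of 0.0333 and 0.0461; both calls were lost without Control 1, 2 or 4 or HMF 1, 2 or 3 (edgeR, adjusted p 0.0617 to 0.117) and with upper quartile or library size scaling. Rack1 (0.01 ± 0.06), whose sign turned with library size scaling, and Ap2m1 (-0.04 ± 0.06), an endocytic adaptor gene, had the largest p. Among other cytokine receptors that use JAKs, including Ifnlr1 and Jak3, 17 of 33 were tested, 4 rose and 1 fell. The 29.4% called was near the 26.7% of all tested genes, of which 13.7% were called as rises and 13.0% as falls. The median log2 fold change of the list was 0.23. Il13ra1, a chain of the interleukin 4 and 13 receptor, rose by 0.89 ± 0.09, Il6st, which encodes the shared chain gp130, by 0.53 ± 0.06, and Il12rb1 by 1.27 ± 0.16. Il15ra rose by 1.04 and Il11ra1 fell by 0.24, both named after their values were seen. Il20rb (0.04 ± 0.37) and Il6ra (0.03 ± 0.20), the interleukin 6 receptor gene, had the largest p, with signs that turned under some alternatives. The call of Il11ra1 was lost without Control 2, 3 or 4 or HMF 1, 2 or 4 (edgeR, adjusted p 0.0562 to 0.0853).

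**Figure D5:**
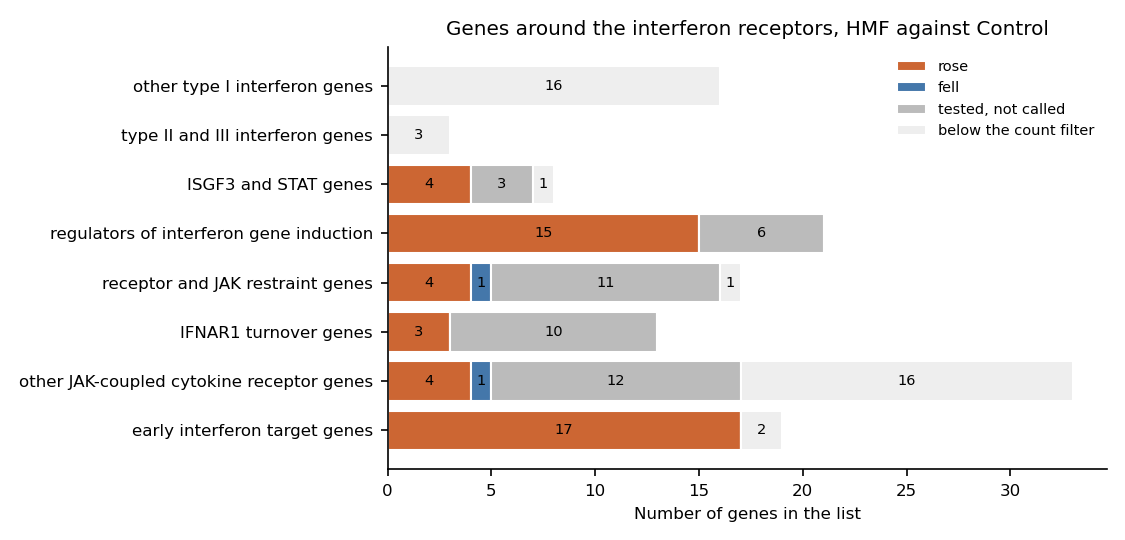
Number of genes (horizontal axis) in each list around the receptors that rose (orange), fell (blue), were tested without a call (grey) or lay below the count filter (pale). All 17 tested early interferon targets rose, while 10 of the 13 tested genes in the IFNAR1 turnover list were not called.

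The genes whose pattern over the 8 libraries lay nearest to Ifnb1 were sought among 11614 genes. The measure was the root mean square distance between log2 CPM values centred on each gene's mean. Here a small count was added before the log, which reduces the differences of genes with few counts, such as Ifnb1. The nearest were Il33, an alarmin cytokine gene, at a distance of 0.176, Niban1 at 0.266 and Rnd1 at 0.312. Il33 was at 3.43, 2.13, 3.17 and 1.97 CPM in Control and 9.46, 12.9, 11.6 and 22.4 CPM in HMF, and Niban1 and Rnd1 were also highest in HMF 4. Among the genes nearest to Jak2 were the general transcription factor gene Gtf2e1 (0.0423) and the importin gene Kpna1 (0.0436). These distances describe 8 libraries and carry no test.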

How the data were processed

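RNA from 8 libraries was captured by polyA selection and sequenced, per the labels' protocols. The authors deposited 1 table with a raw count and an FPKM value per gene and library; both are used as deposited, per the file headers. The submitters' processing notes name Trimmomatic, HISAT2 2.0.5, HTSeq, DESeq2 and mm10; no source used here gives the annotation or the strand setting. FPKM equalled count over library total and over 1 effective length per gene, checked on 10977 genes with at least 50 counts in every library. Counts were tested with edgeR 4.0.16 (quasi-likelihood, TMM scaling, filterByExpr, group as the only term, Benjamini-Hochberg adjustment over 15082 genes, threshold 0.05) in R 4.3.3, after the script was tested on simulated data. Ratios of FPKM were compared by exact permutation (Python 3.11.15, 70 arrangements). Alternatives used limma 3.58.1, DESeq2 1.42.0, other scalings and filters, a replicate block and each library left out. The members and gene lists were chosen with earlier results of these data known. From each list the 3 genes with the smallest and 2 with the largest adjusted p are named, and for Ifnb1 and Jak2 the 3 genes nearest in pattern; others named are said to be chosen after their values were seen, as were Jak3, Ifnlr1 and Il10ra. Some genes that this rule names are not reported here.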

Additional observations from a re-analysis of the deposited data

Results flagged for a closer look

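HMF 4 stood far from the other HMF libraries in 3 of 42 groups of values examined, of which chance flags about 1 in 20. Ifnb1 was at 8.99 CPM there, with a gap to the next library of 0.972 of the group's range. The log2 FPKM ratio of Ifnb1 to Ifnar1 was -0.105 (0.881 of the range) and that of Ifnb1 to Ifnar2 was 0.236 (0.847 of the range). All 3 hold the same Ifnb1 count of 168 and are not independent. HMF 4 was also the deepest library; the part of depth was not tested.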

How the results depend on the processing

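Over 19 alternatives, Ifnb1 (log2 fold change 1.72 to 2.83), Ifngr2 (0.324 to 0.425) and Jak2 (0.332 to 0.446) were called each time, and Ifnar1, Ifngr1 and Jak1 never. With adjusted p below 0.01 the changed genes were 2288 (1239 rose, 1049 fell). The number of members that fell was 0 with that threshold, with limma on FPKM (either pseudocount) and with the replicate block, and 0 to 1 with a library left out; the cause was not tested. The replicate numbers did not pair libraries (correlations -0.265, -0.0793, 0.225 and -0.319); with the replicate block 2785 genes changed and Tyk2 was not called (adjusted p = 0.0551), and the paired exact p of the ratios could not fall under 0.125, which it reached at log2 differences of 0.167 (Ifngr2 to Ifngr1), 0.29 (Jak2 to Jak1), 2.75 (Ifnb1 to Ifnar1) and 2.49 (Ifnb1 to Ifnar2). With a library left out, the Ifngr2 to Ifngr1 difference was 0.132 to 0.199, that of Jak2 to Jak1 0.243 to 0.335 and that of Tyk2 to Jak1 0.11 to 0.193. The signs of genes near 0 turned, all uncalled. With library size alone, limma on log2(FPKM + 1) and limma on log2(FPKM + 0.1), in this order, Ifnar2 was at -0.00105, -0.00244 and -0.00283, Stat5a at -0.0145, -0.0144 and -0.0166, Atf2 at -0.03, -0.0282 and -0.0319, Socs3 at -0.0165, -0.00657 and -0.00989, Rack1 at -0.0304, -0.0301 and -0.0302, and Il6ra at -0.0149, -0.00214 and -0.00215. Il20rb was at -0.00905 with library size alone, and Stat5b at 0.000448 with RLE scaling and 0.00274 with DESeq2. With a library left out, Stat5b ran from -0.0576 to 0.0875, Stat5a ran from -0.0185 to 0.118, Atf2 ran from -0.0321 to 0.0587, Mavs ran from -0.13 to 0.0031, Ptpn1 ran from -0.0458 to 0.016, Socs3 ran from -0.0719 to 0.158, Il20rb ran from -0.22 to 0.286 and Il6ra ran from -0.0546 to 0.167. Ifnb1 and Ifna4 had few counts in Control, which limits the precision of their fold changes.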
